A study of Mus musculus with 18 samples.

Results

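The genes described here are 10 genes of innate sensing and of the TNF and inflammasome pathways, taken by name from the table of liver transcripts, and all 10 were among its 16245 genes. They are Cd14, Tlr2 and Tlr4, which detect microbial molecules at the cell surface, Nlrp3, Pycard, Casp1 and Gsdmd, which form and carry out the inflammasome response, and the cytokine genes Il1b, Il18 and Tnf. The RNA came from whole livers of 18 wild-type C57BL/6 mice, males of C57BL/6J background according to the methods of the study, that ate a diet which produces non-alcoholic steatohepatitis (NASH) and lived at 29 °C, near thermoneutrality for mice, with the diet begun at 8 weeks of age. A vehicle group (Vehicle) of 6 mice received injections without protein. A GDF15 group of 6 mice received recombinant GDF15, a stress-induced hormone that suppresses appetite, by subcutaneous injection once a day. A pair-fed group (PairFed) of 6 mice did not receive GDF15 and was given the quantity of food that GDF15-treated mice had eaten on the previous day. No mouse carried an engineered allele, and the diet and the housing temperature were shared by all 3 groups. The dose that each mouse received is not given in the labels.

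In the mouse genome (build GRCm38, GENCODE annotation) the sensors lie at chr18:36725067-36726798 on the minus strand (Cd14), chr3:83836272-83841767 on the minus strand (Tlr2) and chr4:66827584-66930284 on the plus strand (Tlr4). The inflammasome genes lie at chr11:59541568-59566956 on the plus strand (Nlrp3), chr7:127989708-127993867 on the minus strand (Pycard), chr9:5298517-5307265 on the plus strand (Casp1) and chr15:75862327-75867408 on the plus strand (Gsdmd). The cytokine genes lie at chr2:129364570-129371139 on the minus strand (Il1b), chr9:50554827-50581840 on the plus strand (Il18) and chr17:35199381-35202007 on the minus strand (Tnf). Exons of Pycard share 485 bases with Gm45205 on the opposite strand, and exons of Il1b share 25 bases with the antisense gene Il1bos. Whether the authors' counting used strand is not given in the sources used here, so reads of these overlapping stretches cannot be told apart.

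Innate immune cells recognise conserved microbial molecules and products of damaged cells through receptors such as the toll-like receptors. CD14 hands lipopolysaccharide to TLR4 and lipoproteins to TLR2, and their signal reaches NF-kB, which raises transcription of Tnf, Il1b and Nlrp3. NLRP3 then recruits the adaptor ASC, encoded by Pycard, which activates caspase-1, and caspase-1 cleaves the precursors of IL-1β and IL-18 and opens gasdermin D, encoded by Gsdmd, into a pore in the cell membrane. In liver, Kupffer cells and recruited macrophages carry most of these receptors, whereas hepatocytes also make some of the components. Transcript levels do not measure cleavage or release of the proteins.

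RefSeq promoter entries (GRCm38.p6) were matched for 7 of the 10 genes, and Gsdmd, Tlr4 and Cd14 had no match. Both strands of the 250 bases upstream of each start were searched for the NF-kB consensus by name, for the AP-1 motif TGANTCA and for the PU.1 core GAGGAA, PU.1 being a transcription factor of myeloid cells. Of 32851 promoters of the same length, 7.25% held an NF-kB match, 6.75% an AP-1 match and 23.3% a PU.1 match. Tlr2 and 1 of the 2 entries of Nlrp3 held NF-kB matches. The overlapping Tlr2 matches lay 173 and 172 bases upstream of its RefSeq start, and the Nlrp3 match lay 186 bases upstream of its start and was read on both strands. The other Nlrp3 entry held 3 PU.1 matches, and Tnf, Casp1 and Pycard held 1 PU.1 match each. The RefSeq start of the Il18 entry matched no transcript start of the annotation used and lies upstream of the annotated gene. No match of the 3 motifs was found for Il1b or Il18 in these windows, and none of the 7 genes had an AP-1 match. The stretches of Tlr2, Nlrp3 and Il18 are shown because these genes passed the test of GDF15 against vehicle, Tlr2 and Nlrp3 in the lower and Il18 in the higher direction. They read 5′ to 3′ on the strand of the gene and leave out annotated exons, with capitals marking NF-kB matches. A match describes the letters and is not a measured binding site.
Tlr2, chr3:83841768-83841858, minus strand: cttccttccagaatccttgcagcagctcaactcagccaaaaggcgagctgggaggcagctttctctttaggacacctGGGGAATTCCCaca
Nlrp3, chr11:59541319-59541567, plus strand: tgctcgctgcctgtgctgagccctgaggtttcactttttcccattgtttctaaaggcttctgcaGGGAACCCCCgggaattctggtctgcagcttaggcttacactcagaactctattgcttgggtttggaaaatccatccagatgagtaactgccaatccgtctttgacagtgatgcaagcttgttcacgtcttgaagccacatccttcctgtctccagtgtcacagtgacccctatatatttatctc
Il18, chr9:50554450-50554699, plus strand: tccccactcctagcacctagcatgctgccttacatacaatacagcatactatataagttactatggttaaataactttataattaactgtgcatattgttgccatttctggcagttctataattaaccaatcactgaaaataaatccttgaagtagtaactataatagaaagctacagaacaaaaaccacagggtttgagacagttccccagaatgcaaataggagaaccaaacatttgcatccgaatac

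The authors deposited 1 table of estimated counts, and total counts per mouse ranged from 16508864 to 35301853. At that depth 3 counts, taken as the limit of detection, corresponded to 0.0850 to 0.182 CPM (counts scaled to a common library total), and this limit covers counting error only, because sequenced copies of 1 molecule were not told apart. The replicate sets differed in depth in a way that depended on the group: PairFed replicates 1 to 3 held at most 17926397 counts and replicates 4 to 6 at least 25047723, whereas GDF15 replicates 1 to 3 held at least 21050932 and replicates 4 to 6 at most 19108435. The labels name no sequencing batch. Expression below is given as normalized counts, that is, counts divided by the median-of-ratios size factor of DESeq2. These factors and the library totals differ between the groups: with totals in their place, the median log2 fold change of all genes moved from -0.00 to -0.18 for GDF15 against vehicle and from -0.01 to -0.17 for GDF15 against PairFed, so changes smaller than this shift depend on the scaling. In whole tissue, fewer cells of a type and less RNA per cell cannot be told apart.

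To set the 10 genes beside each other, counts were divided by transcript length and scaled to a common total per library (TPM). Gsdmd had the highest mean level over all 18 mice, at 47.3 TPM, followed by Il18 at 17.1 TPM and Cd14 at 6.10 TPM. Gsdmd exceeded Il18 in 18 of 18 mice without overlap of their ranges, and Il18 exceeded Cd14 and Cd14 exceeded Tlr2 in 18 of 18 mice, although those ranges overlapped. Tlr2 (2.75 TPM) and Casp1 (2.15 TPM) were not separated, since Tlr2 was the higher in only 12 of 18 mice. Il1b (1.51 TPM), Pycard (0.968 TPM), Tlr4 (0.654 TPM), Nlrp3 (0.469 TPM) and Tnf (0.272 TPM) followed. Each of these 5 lay below its upper neighbour in 14 to 17 of 18 mice, and the ranges overlapped. The executioner Gsdmd thus stood at the top of this order, and Nlrp3, the sensor upstream of it, near the bottom.

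**Figure D1:**
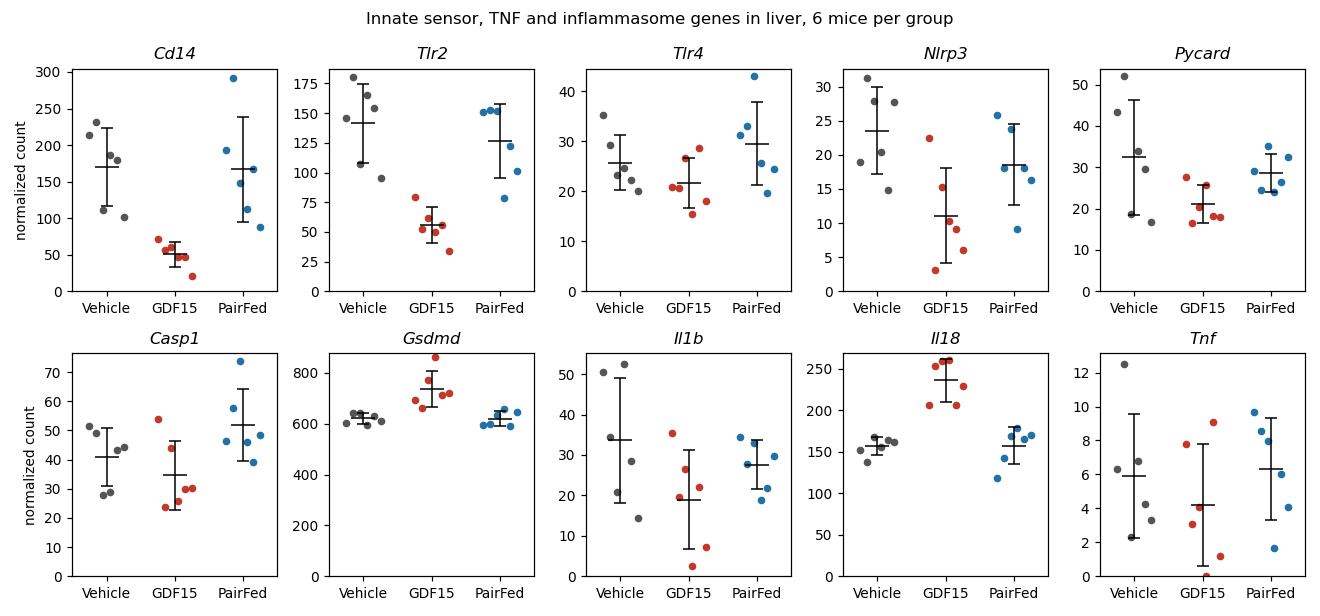
Normalized counts (linear scale) of the 10 genes in each of the 18 liver samples, 1 panel per gene, with a point per mouse. Bars give the group mean and SD for Vehicle, GDF15 and PairFed. The GDF15 points of Cd14 and Tlr2 lie below every Vehicle point (20.5 to 71.1 against 101 to 231 for Cd14), and those of Il18 and Gsdmd lie above every point of both other groups.

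The first comparison asks what GDF15 treatment did to hepatic transcripts relative to vehicle. Cd14 and Tlr2 were lower in all GDF15-treated mice, by 70.2% and 60.5%, Nlrp3 was 51.6% lower, Il18 was 50.7% higher and Gsdmd 18.6% higher, and the other 5 genes did not pass the test. A gene was called when the Benjamini-Hochberg adjusted p, taken over the genes that DESeq2's filter on mean count kept, was under 0.05. Its log2 fold change also had to be beyond 1 in either direction. By that rule 3 of the 10 genes were called lower and 0 higher, where 5.66% of all genes were called (4.85% lower and 0.813% higher). edgeR, which called 5.73% of the 12992 genes it kept, called the same 3. By adjusted p alone 5 of the 10 passed, against 30.1% of all genes. The 6 GDF15 values did not overlap the 6 Vehicle values for 4 of the 10 genes (Cd14, Tlr2, Il18 and Gsdmd), against 11.5% of all genes. The median log2 fold change of the 10 genes was -0.55, and that of all genes was -0.00.

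Among the sensors, Cd14, the lipopolysaccharide co-receptor, had 101 normalized counts in the lowest, 183 in the median and 231 in the highest Vehicle mouse. In GDF15-treated mice the lowest, median and highest values were 20.5, 52.2 and 71.1. All 6 GDF15 values lay below every Vehicle value. The means were 170 ± 53.4 and 50.5 ± 17.2 (SD, n = 6 each), and the log2 fold change was -1.75 (SE 0.290, DESeq2 adjusted p = 6.22e-08). Tlr2, the receptor for bacterial lipoproteins, ranged from 95.5 to 180 in Vehicle mice around a median of 150.5, and from 33.7 to 79.7 in GDF15-treated mice around a median of 54.3. Again no GDF15 value reached the lowest Vehicle value. The Tlr2 means were 142 ± 33.4 and 55.6 ± 15.05 (SD, n = 6 each), with a log2 fold change of -1.34 (SE 0.211, DESeq2 adjusted p = 9.77e-09). The edgeR quasi-likelihood test gave adjusted p = 0.000301 for Cd14 and 0.000131 for Tlr2. Vehicle replicates 3 and 6 were the lowest Vehicle mice for both genes (111 and 101 for Cd14, 107 and 95.5 for Tlr2), and GDF15 replicate 6 was the lowest GDF15 mouse for both.

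Tlr4, which signals with CD14 as its co-receptor, was far less abundant. Its normalized counts were 20.0, 23.9 and 35.2 (lowest, median, highest) in Vehicle mice and 15.41, 20.7 and 28.6 in GDF15-treated mice, so the groups overlapped. This was a log2 fold change of -0.25 with a 95% interval of -0.72 to 0.21 (DESeq2 adjusted p = 0.436).

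Nlrp3, the inflammasome sensor, was measured at low counts. Vehicle mice had 14.8, 24.1 and 31.3 normalized counts (lowest, median, highest) and GDF15-treated mice 3.10, 9.68 and 22.5. The groups overlapped, and 4 of 6 GDF15 values lay below all Vehicle values. The means were 23.5 ± 6.38 and 11.1 ± 6.98 (SD, n = 6 each), the log2 fold change was -1.05 (SE 0.354, DESeq2 adjusted p = 0.0129) and the edgeR adjusted p was 0.0257. The log2 fold change was close to the threshold of 1: it was between -0.84 and -0.998, short of the threshold, when Vehicle replicate 2, 3 or 6 or GDF15 replicate 2, 5 or 6 was left out. In those 6 fits, as in all 18 that left out a mouse, the DESeq2 adjusted p stayed under 0.05, the highest being 0.0439. GDF15 replicate 2 held only 3 counts of Nlrp3.

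The adaptor and the protease downstream of Nlrp3 did not pass the test. Pycard, which encodes ASC, had 16.7, 31.8 and 52.1 normalized counts (lowest, median, highest) in Vehicle and 16.5, 19.3 and 27.7 in GDF15-treated mice. The groups overlapped, and the log2 fold change was -0.62 (SE 0.262, DESeq2 adjusted p = 0.0525). The adjusted p fell under 0.05 in 6 of 28 other fits. By DESeq2 it was 0.0110 without Vehicle replicate 6, the lowest, and 0.549 in replicates 4 to 6, the highest. Casp1, which encodes caspase-1, had 27.9, 43.9 and 51.5 normalized counts in Vehicle and 23.8, 30.005 and 53.7 in GDF15-treated mice, so that the highest GDF15 mouse exceeded every Vehicle mouse. Its log2 fold change was -0.22 with a 95% interval of -0.68 to 0.23 (DESeq2 adjusted p = 0.490).

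Gsdmd, the pore-forming effector of pyroptosis, was higher in every GDF15-treated mouse than in any Vehicle mouse. It had 597, 620.5 and 644 normalized counts (lowest, median, highest) in Vehicle and 662, 717 and 863 in GDF15-treated mice. The log2 fold change was 0.25 (SE 0.0617, DESeq2 adjusted p = 0.000541, edgeR adjusted p = 0.00341), well within the fold threshold. This rise is of the size of the scaling shift given above: with library totals as size factors, Gsdmd had a log2 fold change of 0.07 (DESeq2 adjusted p = 0.368) and no longer passed. On the length-corrected scale its mean was 46.7 ± 2.45 TPM in Vehicle and 48.7 ± 4.404 TPM in GDF15-treated mice (SD, n = 6 each), and the groups overlapped.

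Of the cytokine genes, Il18 rose. Its normalized counts were 138, 159 and 168 (lowest, median, highest) in Vehicle and 206, 241 and 261 in GDF15-treated mice. No values of the groups overlapped. The means were 157 ± 10.9 and 236 ± 25.4 (SD, n = 6 each), with a log2 fold change of 0.59 (SE 0.102, DESeq2 adjusted p = 2.02e-07, edgeR adjusted p = 0.000218). With library totals as size factors Il18 was still higher, by 0.42 on the log2 scale (DESeq2 adjusted p = 5.67e-05). Its TPM ranges, 14.1 to 16.2 in Vehicle and 18.2 to 23.2 in GDF15-treated mice, were also separate. Il18 is the only cytokine gene of the 3 whose groups did not overlap.

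Il1b, the other cytokine that caspase-1 matures, had 14.4, 31.5 and 52.6 normalized counts (lowest, median, highest) in Vehicle and 2.57, 20.9 and 35.5 in GDF15-treated mice. The groups overlapped, and GDF15 replicate 4 held only 2 counts. The log2 fold change was -0.81 with a 95% interval of -1.58 to -0.04, and the DESeq2 adjusted p of 0.0972 missed the threshold. Leaving out GDF15 replicate 1 gave a log2 fold change of -1.10 (DESeq2 adjusted p = 0.0243), and leaving out Vehicle replicate 6 an adjusted p of 0.0394. With library totals it was 0.0476, and the log2 fold change was -0.37 in replicates 1 to 3 and -1.60 in replicates 4 to 6, neither of which passed (DESeq2 adjusted p = 0.534 and 0.0621). Tnf was at the edge of detection, with raw counts of 0 to 12 over the 18 mice and 3 or fewer in 2 Vehicle, 3 GDF15 and 1 PairFed mice. Its normalized counts were 2.33, 5.28 and 12.5 in Vehicle and 0, 3.60 and 9.09 in GDF15-treated mice, and the ranges overlapped. A difference in Tnf was not detectable at this depth: the log2 fold change was -0.48 with a 95% interval of -1.60 to 0.65 (DESeq2 adjusted p = 0.559), and edgeR's filter on low counts left the gene out.

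**Figure D2:**
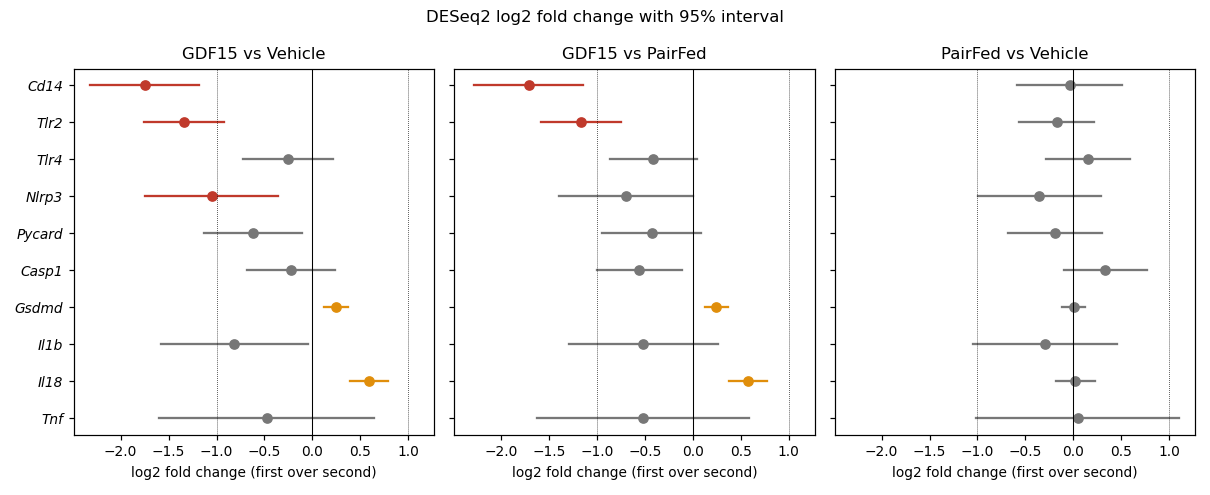
Log2 fold changes of the 10 genes from DESeq2 in the 3 comparisons, with points at the estimates and bars spanning the 95% interval (1.96 SE each way). Cd14 and Tlr2 lie beyond -1 in both comparisons of GDF15, Il18 and Gsdmd lie above 0 in both, and the values of PairFed against Vehicle lie between -0.35 (Nlrp3) and 0.33 (Casp1).

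The second comparison asks which differences remained when GDF15-treated mice were set against mice eating the same amount of food. It uses the same 6 GDF15 libraries as the first, so the 2 are not independent. Cd14 and Tlr2 were again lower, by 69.4% and 55.5%, and Il18 and Gsdmd again higher, by 48.8% and 18.5%, while Nlrp3 did not pass. The rule with both thresholds called 2 of the 10 genes lower and 0 higher, where 2.98% of all genes were called (2.43% lower and 0.554% higher). edgeR called the same 2, and 3.1% of the genes it kept. By adjusted p alone 4 of the 10 passed, against 24% of all genes. The groups did not overlap for 3 of the 10 (Cd14, Il18 and Gsdmd), against 9% of all genes. The median log2 fold change of the 10 was -0.52, and that of all genes -0.01.

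Cd14 in PairFed mice spanned 87.8, 157 and 291 normalized counts (lowest, median, highest). All 6 GDF15 values, at most 71.1, lay below this range. This gave a log2 fold change of -1.71 (SE 0.290, DESeq2 adjusted p = 1.75e-07, edgeR adjusted p = 0.000576). Tlr2 in PairFed mice spanned 78.3, 137 and 153, and 5 of 6 GDF15 values lay below all of them, the sixth being 79.7. Its log2 fold change was -1.17 (SE 0.211, DESeq2 adjusted p = 1.10e-06, edgeR adjusted p = 0.000634). For Il18, PairFed mice had 119, 167 and 178 normalized counts, all below the lowest GDF15 mouse. The log2 fold change of Il18 was 0.57 (SE 0.101, DESeq2 adjusted p = 4.79e-07, edgeR adjusted p = 0.000346), and with library totals it was 0.41 (DESeq2 adjusted p = 6.27e-05). Gsdmd in PairFed mice spanned 589.7, 615 and 657, just below the lowest GDF15 value of 662. Its log2 fold change was 0.24 (SE 0.0611, DESeq2 adjusted p = 0.000666), which with library totals became 0.08 (DESeq2 adjusted p = 0.286).

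Nlrp3 in PairFed mice spanned 9.07, 18.1 and 25.9 normalized counts and overlapped the GDF15 values, of which 2 of 6 lay below all PairFed values. The log2 fold change was -0.69 with a 95% interval of -1.39 to 0.01 (DESeq2 adjusted p = 0.136), and leaving out GDF15 replicate 1 moved it to -1.06 (DESeq2 adjusted p = 0.0189). Casp1 had 39.2, 47.3 and 73.8 normalized counts in PairFed mice, and 4 of 6 GDF15 values lay below all of them. Its log2 fold change of -0.56 just missed the threshold (SE 0.228, DESeq2 adjusted p = 0.0523), and 9 of 28 other fits put its adjusted p under 0.05, among them library totals (0.0128), the fit without GDF15 replicate 1 (0.00813) and the block on replicate number (0.0415). Tlr4 (-0.41), Pycard (-0.43), Il1b (-0.52) and Tnf (-0.52) had log2 fold changes below 0 with DESeq2 adjusted p from 0.181 to 0.532, and their intervals all included 0. PairFed values (lowest, median, highest) were 19.6, 28.4 and 43.2 normalized counts for Tlr4, 23.9, 27.7 and 35.2 for Pycard, 19.0, 28.7 and 34.5 for Il1b, and 1.65, 6.99 and 9.70 for Tnf. Each of these ranges overlapped that of the GDF15-treated mice.

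The third comparison sets PairFed against Vehicle and asks what eating less did without GDF15. None of the 10 genes passed: DESeq2 adjusted p was 0.998 for 9 genes and 0.999 for Gsdmd, 0 of the 10 had an unadjusted p under 0.05, and edgeR gave 0 of the 9 it tested under 0.05 unadjusted. Of all genes 0% were called, with 718 of 16242 genes under 0.05 unadjusted. The groups overlapped for all 10 genes, against 0.209% of all genes that did not overlap. For Cd14 the log2 fold change was -0.04 with a 95% interval of -0.59 to 0.51, for Tlr2 -0.17 (-0.57 to 0.22), for Il18 0.02 (-0.19 to 0.22) and for Gsdmd 0.00 (-0.12 to 0.12). The intervals for Il1b (-1.05 to 0.45), Nlrp3 (-0.999 to 0.29), Casp1 (-0.10 to 0.77) and Tnf (-1.01 to 1.10) were wide enough to hold a change of considerable size. PairFed against Vehicle shares its mice with the other 2 comparisons. That the 2 comparisons with GDF15 and this one fall on different sides of the threshold does not by itself show a difference.

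Because the depth of replicates 1 to 3 and 4 to 6 differed within groups, each set was also fitted alone. Cd14 had a log2 fold change against Vehicle of -1.55 in replicates 1 to 3 and -2.03 in replicates 4 to 6 (DESeq2 adjusted p = 2.16e-05 and 8.81e-07), and against PairFed of -1.74 and -1.68 (1.34e-06 and 0.000105). Tlr2 had -1.15 and -1.58 against Vehicle (DESeq2 adjusted p = 2.64e-05 and 3.09e-06), and -1.22 and -1.11 against PairFed (6.92e-06 and 0.00241). Both sensors were thus called in each set. Il18 was higher by 0.66 and 0.53 against Vehicle (DESeq2 adjusted p = 0.00232 and 0.00275) and by 0.74 and 0.44 against PairFed (0.000535 and 0.0133). Nlrp3 had -0.90 and -1.31 against Vehicle, and with 3 mice a group neither set passed (DESeq2 adjusted p = 0.226 and 0.0621). Gsdmd passed in replicates 4 to 6 (0.32 against Vehicle, DESeq2 adjusted p = 0.0204) and not in replicates 1 to 3 (0.18, 0.179). The difference between the sets was not tested.

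**Figure D3:**
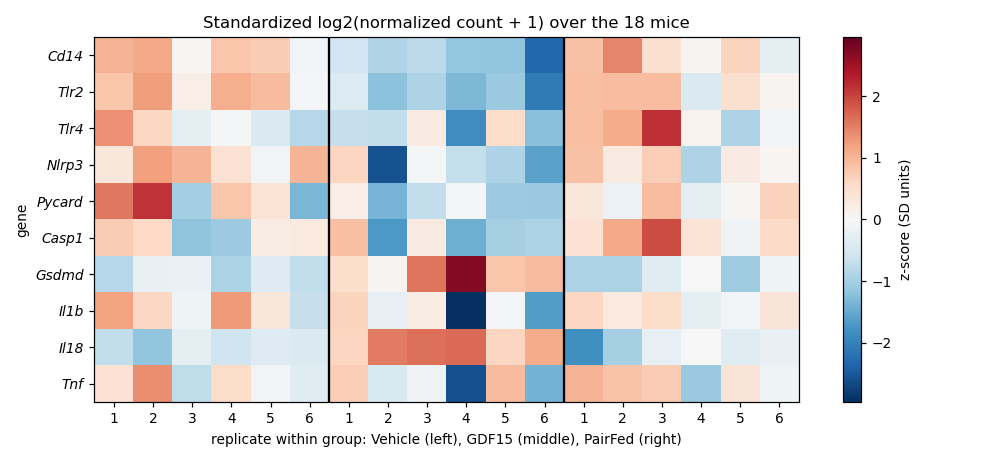
Standardised log2 levels (normalized count + 1, centred and divided by the SD of each gene over 18 mice) of the 10 genes in each mouse, mice in columns by group and replicate. The GDF15 columns are low for Cd14 and Tlr2 and high for Il18 and Gsdmd, and GDF15 replicate 4 is the lowest of all mice for Tnf and Il1b and the highest for Il18 and Gsdmd.

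Marker genes of liver cell types were set beside these results. Of all genes, 15.8% were lower and 14.3% higher against Vehicle by adjusted p alone, and 4.85% were called lower by both thresholds. Against PairFed 12.2% were lower and 11.8% higher by adjusted p alone. Of 16 macrophage markers, 4 were called lower and 12 were lower by adjusted p alone in GDF15 against Vehicle, with 0 higher, and their median log2 fold change was -0.61. The summed normalized counts of the 16 were 9566 to 17589 in Vehicle, 5972 to 11473 in GDF15 and 9387 to 14626 in PairFed mice. The 4 called were Gpnmb (-2.60, DESeq2 adjusted p = 2.53e-07) and Trem2 (-1.52, 2.85e-06), which mark lipid-laden macrophages, the IgG receptor gene Fcgr1 (-1.10, 2.81e-06) and the lysozyme gene Lyz2 (-1.01, 7.59e-05). The resident Kupffer cell markers Clec4f (0.15, DESeq2 adjusted p = 0.550) and Vsig4 (-0.06, 0.891), picked after their values were seen, did not pass, nor did Timd4 (1.03, 0.0646), picked likewise. Cd5l, also made by Kupffer cells, was lower (-0.43, DESeq2 adjusted p = 0.0496). Against PairFed 11 of the 16 were lower and 0 higher by adjusted p alone. Of 11 hepatocyte markers, 9 were higher and 0 lower by adjusted p alone against Vehicle, with a median of 0.61, and their summed normalized counts were 1718040 to 2195120 in Vehicle, 2519490 to 2914320 in GDF15 and 1587760 to 2407630 in PairFed mice. No macrophage or hepatocyte marker was at 0 in a whole group. Cd14 and Tlr2 changed in the direction of the macrophage markers, which was also that of the stellate cell and cholangiocyte markers (medians -0.84 and -1.03). Il18 and Gsdmd changed in the direction of the hepatocyte markers. With library totals 9 of the 11 hepatocyte markers were still higher, whereas Gsdmd did not pass (0.07, DESeq2 adjusted p = 0.368). The part of cell makeup in these results was not tested.

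Markers of other cell types gave the following counts in GDF15 against Vehicle by adjusted p alone. With median-of-ratios size factors, those of neutrophils, lymphocytes and endothelium were not above the shares of all genes just given. Of 11 neutrophil markers 1 was lower and 0 higher, with sums of 91.0 to 178 normalized counts in Vehicle, 77.5 to 155 in GDF15 and 90.5 to 125 in PairFed mice, and Camp was at 0 in all PairFed mice. Of 13 lymphocyte and NK cell markers 1 was lower and 1 higher (4 lower and 0 higher with library totals), with sums of 123 to 216 in Vehicle, 74.5 to 176 in GDF15 and 173 to 255 in PairFed mice. Of 10 sinusoidal endothelial markers 1 was lower and 1 higher, whereas 10 of 11 stellate cell and fibroblast markers and 6 of 7 cholangiocyte markers were lower. The cholangiocyte sums were 2433 to 8729 in Vehicle, 1081 to 2111 in GDF15 and 2244 to 6114 in PairFed mice, and the stellate sums 9374 to 16371, 4676 to 6928 and 8463 to 13449. Against PairFed the lower counts were 1 neutrophil, 3 lymphocyte, 1 endothelial, 9 stellate and 1 cholangiocyte marker, with 0 higher in each of these lists.

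The neighbouring genes of the pathway were taken as lists, and their counts below are by adjusted p alone unless both thresholds are named. By that rule 15.8% of all genes were lower and 14.3% higher against Vehicle, and 12.2% lower and 11.8% higher against PairFed. Of 15 other toll-like receptors and co-receptors, 10 were lower and 0 higher in GDF15 against Vehicle, with a median log2 fold change of -0.78, and 7 were lower and 0 higher against PairFed, with a median of -0.74. Tlr1, which pairs with TLR2, fell by 1.30 on the log2 scale (DESeq2 adjusted p = 5.46e-09) and Tlr12, a receptor for profilin of parasites, fell by 1.19 (1.26e-13), and both were called against PairFed too. Tlr1 has a close paralog in Tlr6, and how shared reads were divided between them is not given. The scavenger receptor gene Cd36, a partner of TLR2, fell by 0.79 (DESeq2 adjusted p = 2.89e-08), whereas Lbp, whose product carries lipopolysaccharide to CD14, had 0.23 (0.175). By contrast, 0 of 14 adaptors and kinases downstream of the receptors were lower in either comparison. In that list 1 gene was higher, the adaptor gene Tirap (0.46 against Vehicle, DESeq2 adjusted p = 2.50e-05), named after its value was seen. The kinase gene Irak1 (0.04, DESeq2 adjusted p = 0.524), the inhibitor gene Tollip (0.10, 0.264) and Tab2 (0.16, 0.339) did not pass. With library totals, 3 of the 14 were lower against Vehicle, and Irak1 was -0.13 (DESeq2 adjusted p = 0.0196).

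Among 23 other inflammasome sensors and pyroptosis genes, 3 were lower and 4 higher against Vehicle, with a median of -0.38, and 3 lower and 4 higher against PairFed, with a median of -0.24. Counts of this size lie near the shares of all genes just given. The 3 lower genes against Vehicle, named after their values were seen, were Mefv, which encodes the sensor pyrin (-1.37, DESeq2 adjusted p = 0.0127), the gasdermin gene Gsdme (-0.95, 4.83e-05) and Casp4, whose product binds lipopolysaccharide in the cytosol (-0.80, 0.0174). Only Mefv was called by both thresholds, at a mean of 16.6 normalized counts in Vehicle and 6.39 in GDF15-treated mice. Among the higher genes were Nlrp6, a sensor of the gut and liver epithelium (0.59, DESeq2 adjusted p = 6.26e-08), Ninj1, whose product ruptures the membrane of dying cells (0.34, 3.76e-07), and the alarmin gene Hmgb1 (0.17, 0.0378). Ninj1 was likewise named after its value was seen. With library totals 9 were lower and 3 higher, and Hmgb1, whose exons share 42 bases with Uspl1 on the opposite strand, had 0.00 (DESeq2 adjusted p = 0.983).

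In the interleukin-1 family, 3 receptor genes were higher and 2 ligand genes lower than in Vehicle mice. Of 12 genes in all (median -0.28), 7 did not pass. Against PairFed 2 were lower and 4 higher (median -0.22). Counts this small are not far from the shares of all genes against Vehicle (15.8% lower and 14.3% higher). With library totals 3 were lower and 2 higher against Vehicle. Il1r1, the signalling receptor of IL-1, was higher by 0.99 against Vehicle (DESeq2 adjusted p = 1.40e-07) and by 1.27 against PairFed (9.55e-12), the latter past both thresholds. Its partner Il1rap, which shares 552 exonic bases with the antisense Gm20319, was higher by 0.75 and 0.61 (DESeq2 adjusted p = 2.89e-10 and 5.58e-07). Sigirr, which encodes an inhibitory receptor, was higher by 0.29 against Vehicle (DESeq2 adjusted p = 0.000134) but by 0.11 with library totals (0.212). The 2 lower genes against Vehicle, named after their values were seen, were the receptor antagonist gene Il1rn (-0.79, DESeq2 adjusted p = 0.00171) and the alarmin gene Il33 (-0.64, 0.000219).

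For TNF superfamily receptors and signalling, 4 of 22 genes were lower and 2 higher against Vehicle (median -0.05), and 4 lower and 1 higher against PairFed (median -0.06). With library totals 8 were lower and 0 higher in each comparison. The receptors of TNF itself did not pass: Tnfrsf1a had -0.02 (DESeq2 adjusted p = 0.897) and Tnfrsf1b 0.10 (0.660). Tnfrsf12a, the receptor for TWEAK, fell by 1.21 on the log2 scale (DESeq2 adjusted p = 1.13e-05) and the death receptor gene Tnfrsf10b fell by 1.25 (1.65e-05), and both were called. The other 2 lower genes, named after their values were seen, were Tnfsf12, which encodes TWEAK (-0.49, DESeq2 adjusted p = 0.000473), and the necroptosis effector gene Mlkl (-0.70, 0.000191). Cflar, which encodes an inhibitor of caspase-8, was higher by 0.29 (DESeq2 adjusted p = 0.00504) and by 0.12 with library totals (0.293). Of 17 NF-kB subunits, kinases and feedback inhibitors, 5 were lower and 3 higher against Vehicle (median -0.00), and 4 lower and 3 higher against PairFed (median 0.02). The subunit gene Relb fell by 1.27 against Vehicle (DESeq2 adjusted p = 3.96e-06) and by 1.09 against PairFed (0.000137). The kinase genes Chuk (0.21, DESeq2 adjusted p = 0.00720) and Ikbkb (0.13, 0.0170) were higher, but with library totals they had 0.04 (0.655) and -0.04 (0.663). With that scaling 7 of the 17 were lower and 0 higher.

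Of 18 other pattern recognition receptors, 7 were lower and 1 higher against Vehicle (median -0.55), and 4 lower and 1 higher against PairFed (median -0.32). With library totals 9 were lower and 0 higher in each comparison. The C-type lectin receptor genes Clec7a, which encodes the β-glucan receptor dectin-1 (-1.42, DESeq2 adjusted p = 4.83e-07), and Clec4n, which encodes dectin-2 (-1.29, 6.77e-07), were called. The third gene called, Clec4d (-1.78, DESeq2 adjusted p = 0.0158), and the 4 remaining lower genes were named after their values were seen. Among them, 3 encode parts of the route by which such lectins signal, the kinase gene Syk (-0.85, DESeq2 adjusted p = 1.38e-05), the adaptor chain gene Fcer1g (-0.86, 2.72e-05) and Card9 (-0.98, 0.00511). Sting1, whose product responds to DNA in the cytosol, was also lower (-0.71, DESeq2 adjusted p = 0.00924). Sensors of RNA in the cytosol did not pass, Ifih1 having 0.16 (DESeq2 adjusted p = 0.112) and Ddx58 0.03 (0.730), and their adaptor gene Mavs was higher by 0.24 (0.00108) or, with library totals, by 0.08 (0.285). In the comparison of PairFed with Vehicle, 0 genes of any list passed by DESeq2 or by edgeR.

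**Figure D4:**
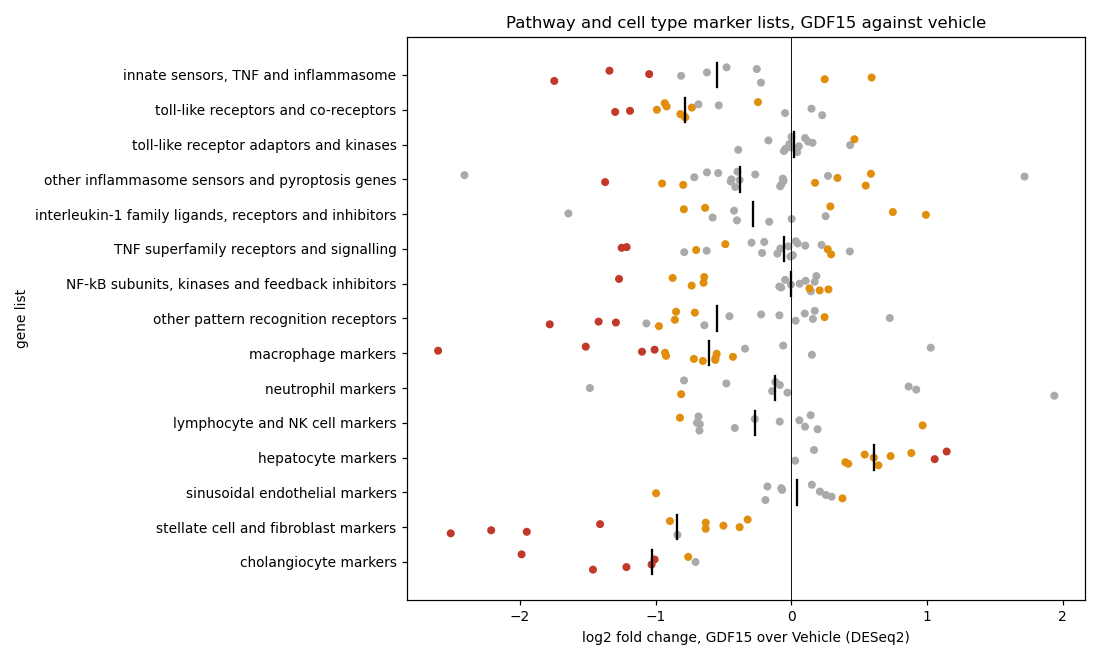
Log2 fold changes of GDF15 over Vehicle (DESeq2) for every measured gene of the 10 genes, of 7 pathway lists and of 7 cell type marker lists, 1 point per gene and a black tick at the median. Red points pass both thresholds, orange points pass adjusted p alone and grey points neither. The receptor lists lie mostly below 0 (median -0.78 for toll-like receptors), the adaptors near 0 (0.02), the macrophage markers below 0 (-0.61) and the hepatocyte markers above 0 (0.61).

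To describe which transcripts followed each gene most closely over the 18 mice, Pearson's r of log2 levels was taken with 10879 genes that had a mean of at least 50 normalized counts. The points share the 3 groups and the same libraries and scaling, so the values are descriptions. Tlr2 was closest to the kinase gene Stk10 (r = 0.979), to Sirpa, which encodes a myeloid inhibitory receptor (0.965), and to Clec7a (0.965). Cd14 was closest to Sirpa (0.967) and Stk10 (0.962) as well, followed by Srd5a3 (0.957). Il18 was instead closest to the coagulation factor gene F7 (0.951), Rdh16f2 (0.949) and the mitochondrial carrier gene Slc25a23 (0.947). Gsdmd was closest to genes of plasma proteins made in hepatocytes, vitronectin (Vtn, 0.916) and the fibrinogen chains Fgb (0.912) and Fga (0.901). Il1b was closest to Gpr137b (0.898), Pycard to Ifi204 (0.903), a member of a family of similar genes, Tlr4 to Sdc3 (0.869) and Casp1 to Sec14l1 (0.804). By ranks (Spearman's rho) the value was lower for Il1b with Gpr137b (0.692) and for Gsdmd with Vtn (0.792), Fgb (0.746) and Fga (0.707). It was not lower for Pycard with Ifi204 (0.913) or Il18 with F7 (0.959). With the group means taken out, Pearson's r was 0.737 for Gsdmd with Vtn and 0.779 for Il18 with F7. In the same way it was 0.917 for Tlr2 with Stk10 and 0.892 for Cd14 with Sirpa. Tnf and Nlrp3, with a mean under 20 normalized counts, were left out of this description.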

How the data were processed

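Livers of 18 mice were profiled by RNA-seq. The authors trimmed reads with Trim Galore, quantified them with Salmon and deposited 1 table of estimated counts per gene symbol, in whole numbers and not scaled for depth, with a lowest row total of 5. Per the labels the build is mm10; tool versions and the transcriptome are not given in the sources used here. Groups came from sample titles. Counts of all 18 samples were fitted with DESeq2 1.42.0 (R 4.3.3, median-of-ratios size factors, Wald test, group as the only factor, unshrunken fold changes). Benjamini-Hochberg adjustment followed DESeq2's independent filtering on mean count. It left 1578 genes against Vehicle and 1892 against PairFed without an adjusted p for GDF15. These count as not called in the shares of all 16245 genes. The tool and both thresholds follow the study's methods. edgeR 4.0.16, which kept 12992 genes, was the alternative test, beside 26 other settings. The scaling by library totals was added after the data were seen. TPM used mean protein-coding transcript lengths of GENCODE, available for 15936 genes. The fits were tested on simulated data. No 2 libraries held identical values.

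The 10 genes and all lists were chosen with earlier results of these data known. List genes were named from the up to 4 called genes of largest change with a mean of at least 20 normalized counts and the 3 of highest level in each list, not all of which are printed; genes named outside this rule are marked, and 1 gene is not reported here. P-values reflect the spread between single-housed mice.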

Additional observations from a re-analysis of the deposited data

How the results depend on the processing

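Cd14 and Tlr2 were called lower, and Il18 passed adjusted p alone as higher, in all 28 alternatives and both comparisons of GDF15. Without 1 mouse, the count of the 10 genes called was 2 to 4 against Vehicle and 2 to 3 against PairFed, and by adjusted p alone 5 to 7 and 4 to 6. All genes called numbered 715 to 1069 against Vehicle, 376 to 549 against PairFed and 0 to 2 for PairFed against Vehicle, where the 10 genes gave 0 throughout. Replicates 1 to 3 alone gave 3 genes by adjusted p alone against Vehicle, in place of 5. Library totals as size factors, added after the data were seen, gave 757 genes called against PairFed, in place of 484. For PairFed against Vehicle all genes called were 3 in replicates 1 to 3 and 11 in replicates 4 to 6, in place of 0; the cause was not tested.

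Of 278 values of the 10 genes against Vehicle, 8 lost their call, all of Nlrp3, 1 gained it and 0 turned sign; against PairFed 1 of 278 gained a call and 0 turned sign. For PairFed against Vehicle 32 of 278 turned sign, none of them past the threshold. Tnf was -0.30 and Pycard 0.035 in replicates 4 to 6. In replicates 1 to 3, Il18 was -0.082, Gsdmd -0.044, Tlr2 0.071 and Cd14 0.19. Gsdmd was -0.0055 with edgeR, -0.00073 with TMM, -0.0035 with thinned libraries and -0.011 with library totals. Without 1 mouse, Tnf ranged from -0.12 to 0.39, Il18 from -0.020 to 0.083, Gsdmd from -0.016 to 0.017 and Cd14 from -0.27 to 0.10.

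Replicate numbers did not pair the mice: same-numbered samples correlated at a mean of -0.0513 between GDF15 and Vehicle, 0.0278 between GDF15 and PairFed and 0.211 between PairFed and Vehicle, where 1 of 6 correlated best with its own number. A block on replicate number gave 2 genes called for PairFed against Vehicle, with Tnf at -0.0030 and Gsdmd at -0.0014, and Nlrp3 at -1.17 against Vehicle (DESeq2 adjusted p = 0.00815). For GDF15 against Vehicle the block lowered the SE of Cd14 from 0.290 to 0.186 and that of Tlr2 from 0.211 to 0.189. It raised the SE of Nlrp3 from 0.354 to 0.370. Whether same-numbered mice were alike in single genes was not tested. Depth limits Tnf in all groups and Nlrp3 and Il1b in GDF15-treated mice.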

Other observations

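A single mouse carried the extremes of several of these genes, a pattern picked after its values were seen and given without a test. GDF15 replicate 4 had the lowest normalized count of all 18 mice for Tnf (0), Il1b (2.57) and Tlr4 (15.41), and the highest for Il18 (261) and Gsdmd (863). For Il18, GDF15 replicate 3 was close behind (259) and was the higher of these 2 mice in TPM (23.2 against 21.9). GDF15 replicate 2 was the lowest of all 18 for Nlrp3 (3.10), Pycard (16.5) and Casp1 (23.8), and GDF15 replicate 6 for Cd14 (20.5) and Tlr2 (33.7). At the other end, Vehicle replicate 2 was the highest of all mice for Tnf (12.5), Nlrp3 (31.3), Pycard (52.1) and Tlr2 (180), whereas the highest Cd14 value was that of PairFed replicate 2 (291) and the highest Casp1 and Tlr4 values were those of PairFed replicate 3 (73.8 and 43.2).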
